A study of Mus musculus with 30 samples.

Results

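The comparison described is that of whole ovaries from mice given DEHP at 20 µg/kg/day, taken 3 months after dosing ended, with ovaries of mice given the same dose and taken at its end (0 months). The members were the 3 libraries of each of these groups, chosen by their labels, which makes 6 of the 30 libraries of the series. All 30 came from adult females of CD1, an outbred mouse stock, dosed for 10 days with vehicle, DEHP at 20 or 200 µg/kg/day, or DiNP at 20 or 100 µg/kg/day, and each treatment had 3 libraries at each time. Vehicle ovaries at the same times, also 3 libraries each, are set beside the DEHP 20 ovaries and share no library with them. The mice of the later groups were also 3 months older, so time since dosing and age cannot be told apart. The labels used here give neither the estrous stage nor whether replicates came from separate mice, so p-values measure the spread between these libraries.

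DEHP, di(2-ethylhexyl) phthalate, and DiNP, diisononyl phthalate, are plasticizers that leach from plastics and are studied for effects on reproduction. The adult ovary holds a store of oocytes that is not renewed, surrounded by granulosa and theca cells that grow with each follicle and divide, and after ovulation they become the corpus luteum, which makes progesterone from cholesterol. Macrophages and the complement system, a cascade of blood and tissue proteases that marks cells and debris for removal, take part in the turnover of follicles and corpora lutea.

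Values are log2 CPM, the base-2 logarithm of read counts scaled to the size of each library, and the lowest value in the table was -3.34. Depth was approximated from the steps between low values at 28.5 to 33 M reads for the 6 libraries and 24.6 to 41.6 M reads over all 30. Libraries of the same DEHP 20 group correlated at r = 0.961 to 0.975 across genes, and libraries of different times at 0.943 to 0.977. On principal component 1, which held 28.1% of the variance, replicate 1 at 3 months (-11.2) lay beside replicate 1 at 0 months (-10.9), while the other two libraries at 3 months lay at 27.1 and 24.1. All 24 oocyte, all 18 granulosa cell and all 16 corpus luteum genes of the lists used passed the filter on low values. That filter, on the mean of all 30 libraries, passed 14740 of 18022 genes, among them all 18 macrophage genes. Passing it therefore does not test the label of ovary.

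Between 0 and 3 months after DEHP 20, 3 genes rose and none fell among 14740 tested: C1ra and C1s1, the proteases that start the classical complement pathway, and Ltbp2, an extracellular matrix protein of the latent TGF-beta binding family found on microfibrils. A gene was called at a Benjamini-Hochberg adjusted p under 0.05 in limma, so 0.0204% of the genes tested were called higher and 0% lower. At an unadjusted limma p under 0.05 there were 1596 genes, 738 higher and 858 lower, where 737 in all would be found with no difference. Differences were above 0 for 52.1% of the genes tested and below 0 for 47.9%. The median difference over all genes was 0.01 on the log2 scale. Over the same interval vehicle ovaries had 1 called gene, the predicted gene Gm7609, which is 0.00678% of those tested, and 1176 under an unadjusted p of 0.05.

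C1ra encodes C1r, which cleaves and activates C1s. Its level at 0 months after DEHP 20 was 5.98, 5.81 and 6.01 log2 CPM in replicates 1 to 3, and at 3 months 6.57, 6.93 and 6.75. The lowest library at 3 months stood above the highest at 0 months. The group means were 5.93 ± 0.11 and 6.75 ± 0.18 (SD, n = 3 each), a difference of 0.82 ± 0.12 (SE) or 1.76-fold, with an adjusted p of 0.00821 in limma.

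C1s1 encodes C1s, which cleaves C4 and C2. It stood at 6.31, 6.23 and 6.16 log2 CPM at 0 months and at 6.96, 7.33 and 7.19 at 3 months. The 0-month libraries lay within a narrow band and all 3 later libraries lay above it. The difference was 0.93 ± 0.15 (SE), 1.91-fold, with an adjusted p of 0.0123 in limma.

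Ltbp2 had 3.58, 4.16 and 4.43 log2 CPM at 0 months and 5.24, 5.42 and 6.19 at 3 months. Its groups did not overlap, but its spread was wider than that of the complement genes, with means of 4.06 ± 0.44 and 5.62 ± 0.50 (SD, n = 3 each). The difference was 1.56 ± 0.27 (SE), 2.95-fold, with an adjusted p of 0.0437 in limma.

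In vehicle ovaries these genes also had higher means at 3 months. For each of the 3, all vehicle libraries at 3 months lay above all at 0 months. C1ra read 6.15, 6.0 and 6.19 log2 CPM at 0 months and 6.38, 6.33 and 6.48 at 3 months, a difference of 0.28. C1s1 read 6.49, 6.54 and 6.71 at 0 months and 6.87, 6.93 and 6.76 at 3 months, a difference of 0.27. Ltbp2 differed by 0.84 over that interval. At 0 months the vehicle means were 6.11, 6.58 and 4.38 for C1ra, C1s1 and Ltbp2, against 5.93, 6.23 and 4.06 after DEHP 20. For C1s1 all vehicle libraries at 0 months lay above those of DEHP 20. The differences between intervals include these starting levels. The DEHP 20 difference exceeded that of vehicle by 0.54 ± 0.17 (SE) for C1ra, 0.66 ± 0.21 for C1s1 and 0.72 ± 0.39 for Ltbp2, and none of these passed the test of the difference (adjusted p of 1 in limma). In the other dosed groups the 3-month differences of C1ra were 0.29 with DEHP 200, 0.77 with DiNP 20 and 0.34 with DiNP 100. Those of C1s1 were 0.39, 0.96 and 0.50 in the same order, and those of Ltbp2 were 1.88, 1.19 and 1.75. The size of the difference in DiNP 20 ovaries was thus near that of DEHP 20 for the complement pair. The vehicle value was the lowest of the 5 treatments for all 3 genes. For C1ra it was nearly the same as that of DEHP 200 (0.28 against 0.29, with an SE of 0.12 for vehicle).

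**Figure D1:**
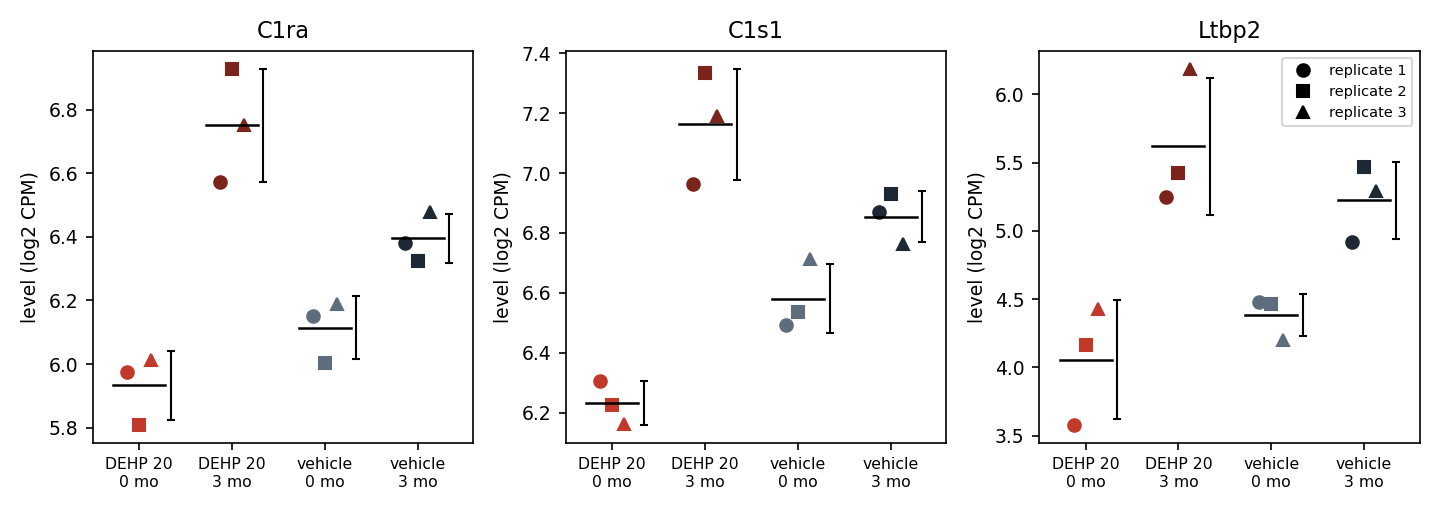
Level of the 3 called genes in each library (log2 CPM, vertical axis not starting at 0) for DEHP 20 and vehicle at 0 and 3 months, with the marker shape giving the replicate, the line the mean and the bar 1 SD (n = 3). The DEHP 20 libraries at 3 months lie above those at 0 months for each gene, for C1ra at 6.57 to 6.93 against 5.81 to 6.01.

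Calls rested on few libraries. C1ra was no longer called without replicate 2 at 0 months (adjusted p = 0.103 in limma) or without replicate 2 (0.0913) or replicate 3 (0.0759) at 3 months, while C1s1 and Ltbp2 were called only where replicate 1 at 3 months was the library left out. Fitted on the 6 DEHP 20 libraries alone none of the 3 genes was called (0.135, 0.135 and 0.171 for C1ra, C1s1 and Ltbp2).

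C1ra and C1s1 are neighbours on chromosome 6 and both are protein-coding. In GRCm38.p6 C1ra spans chr6:124512621-124523440 on the plus strand and C1s1 chr6:124530344-124542392 on the minus strand, with 6903 bases between them. Ltbp2 lies on the minus strand at chr12:84783212-84876558. The near-identical copies C1rb and C1s2 lie on the same side of this pair, and a transcript-based count may share reads between copies, so values of all 4 are uncertain to that extent. C1s2 read 2.96, 3.69 and 3.11 log2 CPM at 0 months and 3.80, 3.90 and 3.85 at 3 months, a difference of 0.59 ± 0.19 (SE) that did not pass (adjusted p = 0.319 in limma). C1rb read 0.97, 2.81 and 1.37 at 0 months and 2.16, 2.08 and 2.00 at 3 months, and its groups overlapped.

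The bases just upstream of the 3 called genes are shown because the neighbours C1ra and C1s1 both rose and have separate promoters. They are from RefSeq (GRCm38.p6), written 5′ to 3′ on the gene's strand, and hold only bases outside the annotated gene. Positions are chr6:124512371-124512620 (plus) for C1ra, chr6:124542393-124542609 (minus) for C1s1 and chr12:84876559-84876741 (minus) for Ltbp2. Capitals mark matches, on either strand, to an NF-kappaB-like pattern of GGG and CC with any 5 bases between them.
C1ra: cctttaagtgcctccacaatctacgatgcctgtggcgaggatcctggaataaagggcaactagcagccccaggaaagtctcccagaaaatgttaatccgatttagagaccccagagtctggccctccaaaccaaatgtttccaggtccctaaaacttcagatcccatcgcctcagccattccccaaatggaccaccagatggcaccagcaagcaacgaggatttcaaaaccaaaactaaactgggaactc
C1s1: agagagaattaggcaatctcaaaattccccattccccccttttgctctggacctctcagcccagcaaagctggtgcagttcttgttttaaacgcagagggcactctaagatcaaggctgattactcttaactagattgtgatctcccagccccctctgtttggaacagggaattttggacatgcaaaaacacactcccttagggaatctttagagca
Ltbp2: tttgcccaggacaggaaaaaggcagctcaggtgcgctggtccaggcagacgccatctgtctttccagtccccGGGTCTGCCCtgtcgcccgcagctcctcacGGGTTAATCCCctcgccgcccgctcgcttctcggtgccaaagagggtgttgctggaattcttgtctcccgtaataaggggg
Searched on both strands of the 250 bases before the start, the NF-kappaB-like pattern matched 3 times in Ltbp2, with 2 of the matches overlapping, and it is held by 45.4% of the 27025 promoters of that length. TTCNNNGAA, a STAT element held by 7.18%, an interferon-stimulated response element of GAAA, any 2 bases and GAAA, held by 3.04%, and the nuclear receptor half-site AGGTCA, held by 13.8%, matched in none of the 3 genes. For C1s1, which has 2 listed starts, only the bases before the outermost start were searched. A match is a description of the letters only.

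Complement genes mostly had positive differences, in counts and medians that include the called C1ra and C1s1. Of 20 complement genes 18 passed the filter, and 14 were above 0 (52.1% of all genes) and 4 below (47.9%), with a median difference of 0.54 against 0.22 in vehicle ovaries. In 4 genes all libraries at 3 months lay above all at 0 months, namely C1ra, C1s1, Serping1 and Cfb, and in 1, Masp1, all lay below. Such a gap upward was found in 10.4% of all genes tested and downward in 11.3%. Apart from the called pair, only Serping1 and Cfb had the upward gap. They are named because they are in the count of 4, which was seen first. The gap was upward for 8 and downward for 0 of the 18 genes in vehicle ovaries, against 7.61% and 7.11% of all genes.

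Serping1, the inhibitor of C1r and C1s, read 6.72, 6.55 and 6.63 log2 CPM at 0 months and 6.96, 7.30 and 7.18 at 3 months. The difference was 0.52 ± 0.17 (SE, adjusted p = 0.32 in limma), against -0.03 in vehicle ovaries. C2, the substrate of C1s, read 7.05, 5.51 and 5.58 at 0 months and 6.65, 7.32 and 7.61 at 3 months. Replicate 1 at 0 months was higher than replicate 1 at 3 months, so the C2 groups overlapped. Masp1, a protease of the lectin pathway, read 6.28, 6.35 and 6.36 at 0 months and 5.56, 5.05 and 5.24 at 3 months, and its difference in vehicle ovaries was close to it (-0.91 against -1.05). The complement median was 0.36 without replicate 2 and 0.83 without replicate 3 at 3 months.

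Macrophage genes were higher in the same libraries. All 18 had a difference above 0, with a median of 0.54 in DEHP 20 and 0.57 in vehicle ovaries, and none was called. The groups did not overlap upward for 6 of them in DEHP 20, against 10.4% of all genes. In vehicle ovaries they did not for 11, against 7.61% of all genes. Lyz2, the macrophage lysozyme, read 6.62, 6.67 and 6.44 log2 CPM at 0 months and 8.11, 7.95 and 6.88 at 3 months. Cd68, a lysosomal marker, had a difference of 0.88 ± 0.27 (SE, adjusted p = 0.303 in limma), Tyrobp, a signalling adaptor, 0.71 ± 0.26, and Trem2, a lipid-sensing receptor, 1.38 ± 0.51. Averaged over the list, levels were 3.57 to 3.68 at 0 months and 4.40, 4.67 and 3.71 at 3 months, so replicate 3 lay just above the 0-month libraries. Less RNA per cell and fewer cells of a type, or more of either, cannot be told apart in whole-ovary RNA. The median was 0.25 without replicate 2 and 0.87 without replicate 3 at 3 months. The part of macrophages in the C1ra and C1s1 differences was not tested.

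Oocyte genes were the list with the largest share of members whose groups did not overlap. All 24 were lower at 3 months after DEHP 20, and for 23 of them every library at 3 months lay below every library at 0 months, against 11.3% of all genes tested. None was called. The median difference was -0.90 in DEHP 20 ovaries and -0.68 in vehicle ovaries, where all 24 were also lower but only 3 had groups that did not overlap, against 7.11% of all genes. Genes of 1 cell type share their source, so the members are not independent of each other.

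The exception was Kit, the receptor for Kit ligand, with a difference of -0.05; it was named because it is the only one of the 24 whose groups overlapped. Sohlh1, a transcription factor of early oocytes, read 1.04, 1.67 and 1.24 log2 CPM at 0 months and 0.26, -0.46 and -0.24 at 3 months, a difference of -1.47 ± 0.40 (SE, adjusted p = 0.243 in limma). Nobox, a homeobox factor of the same stage, read 3.78, 4.34 and 4.10 at 0 months and 3.13, 2.91 and 2.90 at 3 months. Tle6, part of the subcortical maternal complex, and Ddx4, a germ cell RNA helicase, had differences of -0.66 ± 0.20 and -1.18 ± 0.37.

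The growth factors that oocytes send to granulosa cells followed the list. Gdf9 read 6.48, 7.15 and 6.74 log2 CPM at 0 months and 6.39, 5.78 and 5.79 at 3 months. Bmp15 read 5.46, 5.98 and 5.60 at 0 months and 4.99, 4.59 and 4.92 at 3 months. Replicate 1 at 3 months was the highest of its group for both. Averaged over the 24 genes, levels were 4.26, 4.99 and 4.56 at 0 months and 3.97, 3.6 and 3.59 at 3 months after DEHP 20, and 4.75, 4.10 and 4.46 against 4.41, 3.73 and 3.10 after vehicle. The 0-month and 3-month ranges of list means were apart in the former and overlapped in the latter. The difference between the intervals of DEHP 20 and vehicle was called for 0 of the 24 genes.

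**Figure D2:**
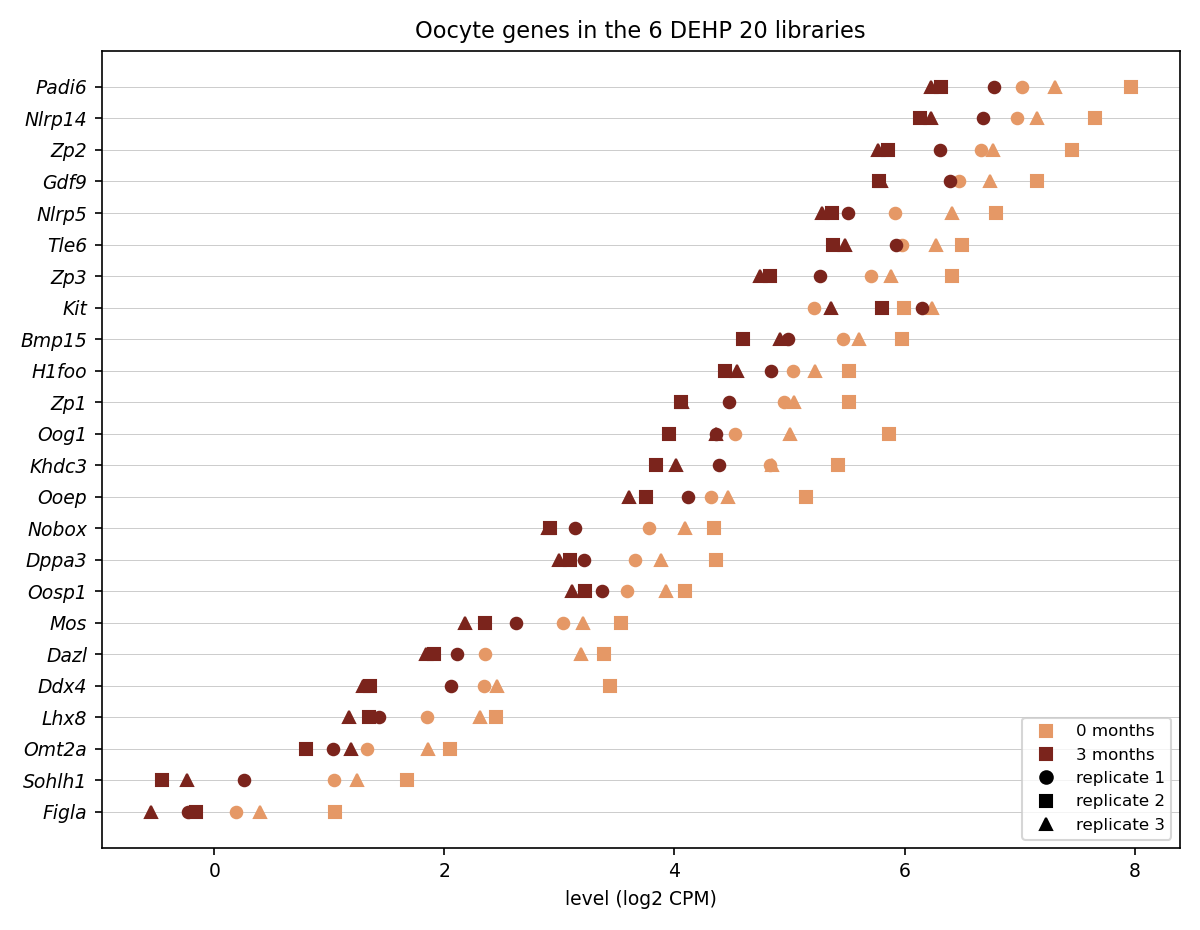
Level of the 24 oocyte genes (log2 CPM, horizontal axis) in the 6 DEHP 20 libraries, ordered by their mean at 0 months, light for 0 and dark for 3 months, with the shape giving the replicate. Dark points lie to the left of light ones for 23 genes and mix with them for Kit.

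Granulosa cell genes were lower as well. All 18 had differences below 0, and for 9 the groups did not overlap, against 11.3% of all genes. In vehicle ovaries 17 were below 0 and 5 had such a gap, against 7.11% of all genes. The medians were -0.60 and -0.53. Inhbb, a beta subunit of activin and inhibin, read 10.19, 9.58 and 10.0 log2 CPM at 0 months and 9.4, 8.4 and 8.17 at 3 months, a difference of -1.27 ± 0.37 (SE, adjusted p = 0.278 in limma). Nap1l5, a nucleosome assembly protein family member, had a difference of -0.89 ± 0.29, and Hsd17b1, which makes estradiol from estrone, -0.90 ± 0.32. Inhba, the other activin subunit, read 8.64, 8.10 and 8.58 at 0 months and 8.25, 6.71 and 6.67 at 3 months. Replicate 1 at 3 months lay within the range of the 0-month libraries for Inhba. Without it 15 of the 18 genes had groups that did not overlap, against 21.9% of all genes, and the median was -0.89.

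Genes of the cell cycle were lower in 29 of 30 cases, with a median of -0.48 against -0.32 in vehicle ovaries. For 20 of them all libraries at 3 months lay below all at 0 months (11.3% of all genes), and for 8 in vehicle ovaries (7.11% of all genes). Ccnd2, the cyclin of granulosa cell division, read 8.25, 8.19 and 7.89 log2 CPM at 0 months and 7.65, 7.30 and 7.36 at 3 months, a difference of -0.67 ± 0.21 (SE, adjusted p = 0.303 in limma). The replication licensing genes Mcm2 and Mcm3 had differences of -0.60 ± 0.20 and -0.50 ± 0.20, and Ccne1, which drives entry into S phase, -0.65 ± 0.26. Ccnd1 was the exception at 0.36 ± 0.37, and it is named for that reason.

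Corpus luteum genes had the opposite direction, with 14 of 16 higher and a median of 0.81, and in vehicle ovaries 0.95. The libraries varied too much for any to be called. Star, which carries cholesterol into mitochondria, read 12.82, 7.95 and 10.62 log2 CPM at 0 months and 10.39, 13.03 and 13.34 at 3 months. Akr1c18, which breaks down progesterone in the regressing corpus luteum, read 7.37, 4.94 and 9.42 at 0 months and 9.45, 11.81 and 11.40 at 3 months. Its groups were parted by 0.03 between replicate 3 at 0 months and replicate 1 at 3 months. Hsd3b1, which makes progesterone, had a difference of 0.52 ± 0.34 (SE), and Rgcc, a cell cycle regulator, 1.46 ± 0.73. List means were 9.07, 7.99 and 9.0 at 0 months and 8.83, 10.05 and 10.10 at 3 months, so replicate 1 at 3 months was among the 0-month libraries. The median was 1.23 without it and 0.51 without replicate 2 at 0 months.

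All 20 tested genes of cholesterol synthesis and uptake had a positive difference, and 19 did in vehicle ovaries, with medians of 0.66 and 0.26. The DEHP 20 groups overlapped for every one, where 10.4% of all genes had an upward gap. Hmgcs1, an early enzyme of the pathway, read 10.23, 8.76 and 8.72 log2 CPM at 0 months and 9.20, 10.30 and 10.82 at 3 months. Replicate 1 was the highest of the 0-month libraries and the lowest of the 3-month ones. Msmo1, a sterol demethylation enzyme, had a difference of 0.89 ± 0.53 (SE), and Insig1, which holds the sterol sensor in the endoplasmic reticulum, 0.53 ± 0.43. The median was 1.18 without replicate 1 at 0 months, 1.2 without replicate 1 at 3 months, 0.34 without replicate 3 at 3 months, and 0.37 and 0.44 without replicates 2 and 3 at 0 months.

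Of the 16 reproductive genes, 4 were higher and 12 lower with a median of -0.54 (-0.41 in vehicle ovaries), and none was called. Without replicate 1 at 3 months the median was -0.91. The groups did not overlap for Hsd3b1, which was higher, and for Hsd17b1, Inha, Gdf9, Amh and Bmp15, which were lower, beside 10.4% and 11.3% of all genes. Amh, the hormone of small growing follicles, read 7.90, 7.45 and 7.40 log2 CPM at 0 months and 7.0, 6.61 and 6.63 at 3 months, a difference of -0.84 ± 0.38 (SE, adjusted p = 0.44 in limma). Inha, the alpha subunit of inhibin, had a difference of -0.70 ± 0.27 and Fshr, the FSH receptor, -0.59 ± 0.34. Cyp19a1, the aromatase, read 6.22, 4.52 and 4.77 at 0 months and 6.06, 2.69 and 2.92 at 3 months, with replicate 1 high at both times. The estrogen receptors Esr1 and Esr2 had differences of 0.25 ± 0.23 and -0.49 ± 0.42, and the steroidogenic enzymes Cyp11a1 and Cyp17a1 0.75 ± 0.75 and -0.30 ± 1.01. Lhcgr, the LH receptor, and Kitl, the ligand of Kit, had differences of -0.29 ± 0.72 and -0.27 ± 0.75. The sign for Cyp17a1 and Kitl changed with the library left out.

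Heat shock and interferon genes had medians that lay well apart after DEHP 20 and after vehicle. All 18 heat shock genes had differences above 0 after DEHP 20, with a median of 0.45, while 15 of 18 were below 0 after vehicle, with a median of -0.24. No gene passed the test of that difference. The list median was 0.08 after DEHP 200, 0.19 after DiNP 20 and -0.05 after DiNP 100. Hspb8, a small chaperone of selective autophagy, read 4.86, 3.93 and 5.28 log2 CPM at 0 months and 5.65, 6.04 and 6.51 at 3 months, a difference of 1.37 ± 0.45 (SE, adjusted p = 0.321 in limma). Hspb1, another small heat shock protein, had a difference of 1.1 ± 0.45, against -0.34 after vehicle. Hspa4l and Chordc1, a co-chaperone of HSP90, had differences of 0.64 ± 0.28 and 0.58 ± 0.27. List means were 7.34, 6.75 and 6.68 at 0 months and 7.16, 7.73 and 7.59 at 3 months after DEHP 20, and 7.17 to 7.69 in the 6 vehicle libraries. The lowest values were thus replicates 2 and 3 at 0 months of DEHP 20. Groups did not overlap for 4 genes, Hspb8, Hspa1b, Bag3 and Dnaja1, a count of 22.2% of the list beside 10.4% of all genes.

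The unfolded protein response, which adjusts protein folding in the endoplasmic reticulum, had the same signs with smaller medians. Of 25 genes 22 were above 0 after DEHP 20 and 4 after vehicle, with medians of 0.17 and -0.16. The median was 0.39 after DEHP 200, 0.38 after DiNP 20 and 0.04 after DiNP 100. The groups did not overlap upward for 4 genes after DEHP 20, against 10.4% of all genes, and downward for 11 after vehicle, against 7.11%. The DEHP 20 count rested on single libraries: without replicate 1 at 3 months 14 of 25 were above 0 with a median of 0.09, and without replicate 2 at 0 months 17 with a median of 0.08. Dnajb9, an endoplasmic reticulum co-chaperone, read 5.94, 5.90 and 5.98 log2 CPM at 0 months and 6.52, 6.39 and 6.2 at 3 months after DEHP 20. Its difference was 0.43 ± 0.14 (SE, adjusted p = 0.328 in limma), against -0.05 after vehicle. Chac1, which degrades glutathione, had a difference of 1.82 ± 0.85 and Xbp1, the spliced transcription factor of the pathway, 0.28 ± 0.17.

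Interferon response genes had a lower median after DEHP 20 than after vehicle. Of 25 tested genes 15 were above 0 after DEHP 20, with a median of 0.07, and 24 after vehicle, with a median of 0.77. The median was 0.27 after DEHP 200, 0.70 after DiNP 20 and 0.55 after DiNP 100. The groups did not overlap upward for 1 gene after DEHP 20, Gbp2, a guanylate-binding GTPase, which at 4% of the list is under the 10.4% of all genes. After vehicle they did not for 16, where 7.61% of all genes had such a gap. Gbp2 read 5.86, 5.54 and 5.64 log2 CPM at 0 months and 6.14, 6.58 and 6.25 at 3 months, a difference of 0.64 ± 0.24 (SE, adjusted p = 0.351 in limma) close to the 0.66 of vehicle. Rsad2, an antiviral enzyme, and Ifih1, a sensor of double-stranded RNA, had differences of 0.77 ± 0.42 and 0.46 ± 0.26, and Mx2, a dynamin-like GTPase, -0.47 ± 0.27. List means after DEHP 20 were 3.34, 2.34 and 3.11 at 0 months and 2.49, 3.79 and 2.79 at 3 months, while after vehicle they were 2.26, 2.15 and 1.83 and then 2.80, 2.80 and 2.96. The 0-month libraries of DEHP 20 therefore began above those of vehicle. Leaving out 1 library moved the DEHP 20 median between -0.30 (without replicate 2 at 3 months, with 6 of 25 genes above 0) and 0.32 (without replicate 1 at 0 months), and it was -0.19 without replicate 2 at 0 months, so its sign depended on the library left out. Across the 25 genes no difference between the intervals was called.

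**Figure D3:**
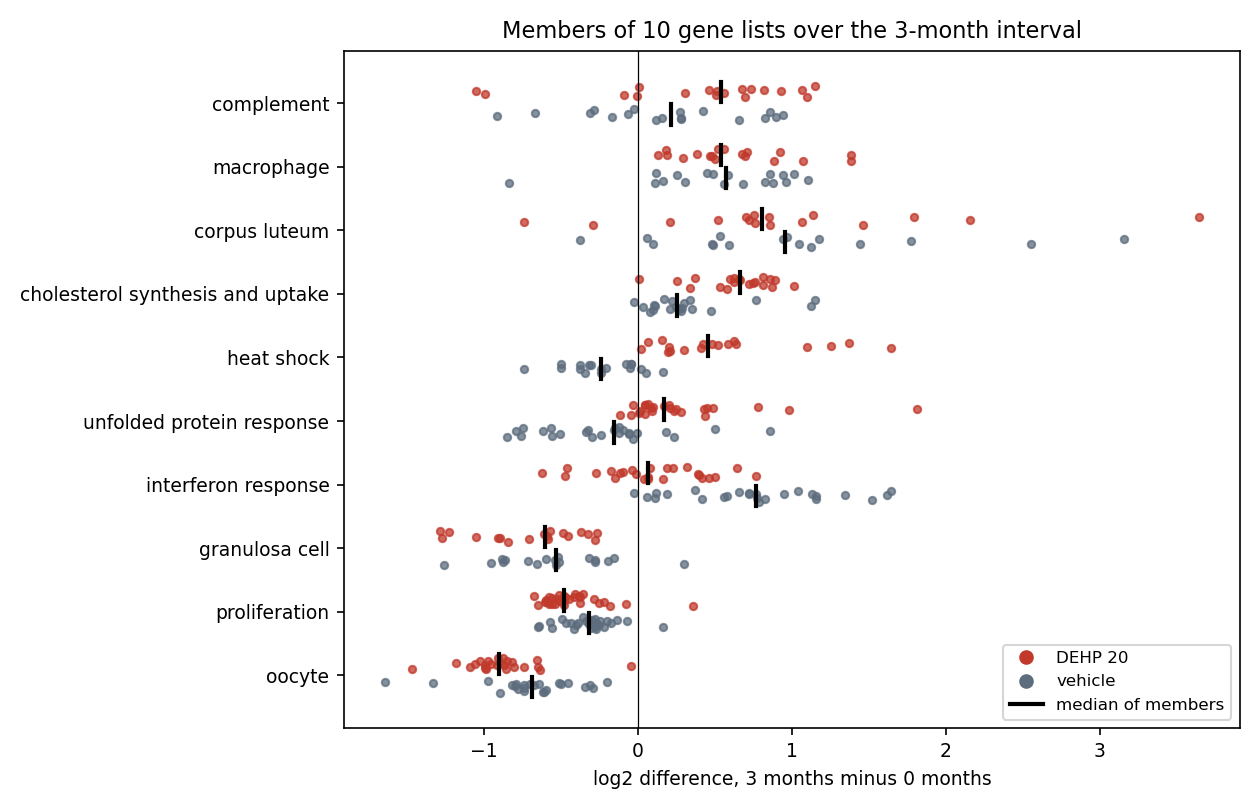
Log2 difference between 3 and 0 months (horizontal axis) of each tested member of 10 lists, DEHP 20 in red and vehicle in grey, with the black bar the median of the list. The medians lie on opposite sides of 0 for heat shock (0.45 and -0.24) and the unfolded protein response (0.17 and -0.16) and on the same side for the other lists.

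Markers of oviduct and ciliated epithelium were high in 1 library. Of 15 genes 8 passed the filter, with list means of 1.33, 1.31 and 0.85 log2 CPM at 0 months and 1.99, 4.37 and 2.00 at 3 months. Foxj1, the regulator of motile cilia, read 0.64, -0.72 and -1.86 at 0 months and 2.59, 5.78 and 2.11 at 3 months. Ovgp1, oviduct glycoprotein, read 1.89, 1.37 and 0.18 at 0 months and 1.73, 6.35 and 5.75 at 3 months, and Cdhr4, a cadherin-related protein, read -0.02, -0.08 and -0.29 and then 0.76, 4.28 and 1.03. Replicate 2 at 3 months was the highest of the 6 libraries for all 3, and replicate 3 was high for Ovgp1. Summed CPM of the 8 genes was 24.5 to 32.1 at 0 months and 40.5, 245.1 and 80.2 at 3 months. All 8 differences were above 0, with a median of 1.06 against -0.11 after vehicle. The median was 0.81 after DEHP 200, -0.11 after DiNP 20 and -0.06 after DiNP 100. The groups did not overlap upward for 2 genes, against 10.4% of all genes. Without replicate 2 at 3 months 6 of the 8 were above 0, with a median of 0.76. No difference between the intervals of DEHP 20 and vehicle was called. Cdh1, the epithelial cadherin, had a difference of 1.05 ± 0.43 (SE), and no gene of the list was called (adjusted p from 0.282 in limma). Liver and kidney markers were mixed: of 8 genes 3 passed the filter, 1 of them above 0 and 2 below, with a median of -0.07. Alb, the liver's serum albumin, which failed the filter and is named for its values, read -1.62, 0.40 and -2.96 at 0 months and -3.34, 4.66 and 5.78 at 3 months. Ttr and Kap, the other members of this list under the filter, are set beside it. Ttr read -3.34, -2.95 and -3.34 and then -3.34, 0.89 and 1.78. Kap read -0.82, 0.27 and -2.96 and then -2.91, -2.60 and -1.85. Oviduct, liver and kidney are not ovary, and their part in the other differences was not tested. C1ra, C1s1 and Ltbp2 had differences of 0.73, 0.84 and 1.66 without replicate 2 at 3 months. None was called without that library or without replicate 3 at 3 months.

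**Figure D4:**
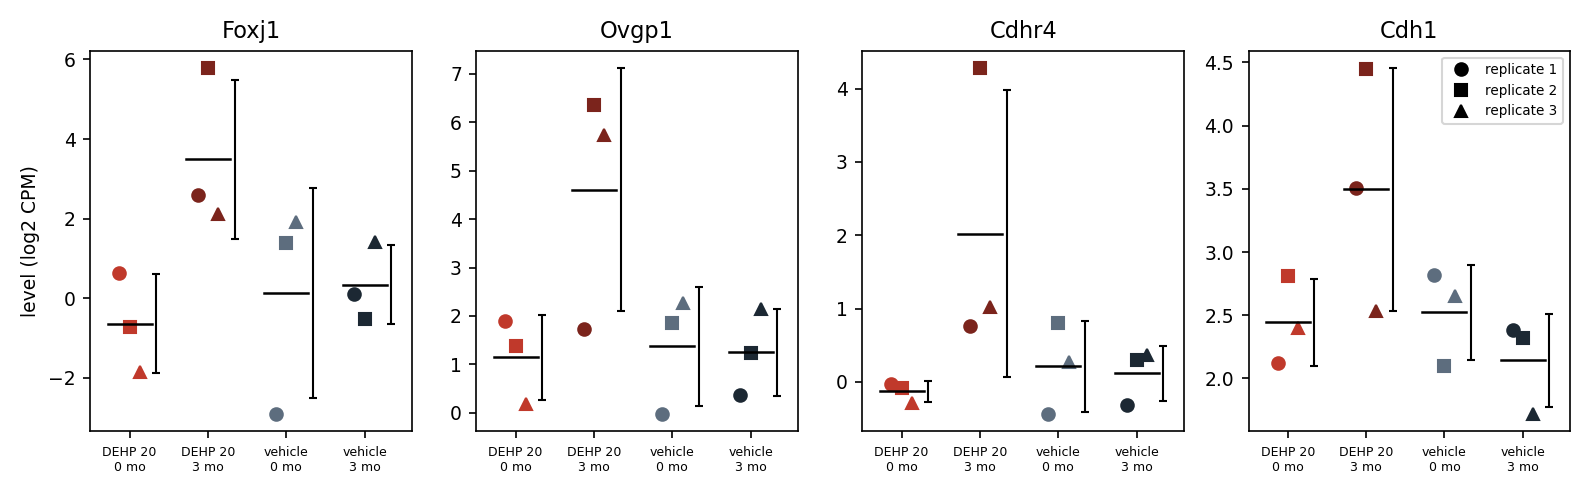
Level of 4 oviduct and ciliated epithelium genes (log2 CPM, each vertical axis on its own scale) in each library of DEHP 20 and vehicle at 0 and 3 months, with the line the mean and the bar 1 SD (n = 3). Replicate 2 of DEHP 20 at 3 months stands highest in each panel, at 5.78 for Foxj1 and 4.45 for Cdh1.

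Genes with the smallest p-values after the called 3 were mostly higher and did not pass. Adgrg7, an adhesion G protein-coupled receptor, read 2.27, 1.23 and 2.09 log2 CPM at 0 months and 3.85, 4.02 and 3.66 at 3 months, a difference of 1.98 ± 0.36 (SE, adjusted p = 0.0595 in limma), against 1.46 after vehicle. Trf, transferrin, the iron carrier, read 5.02, 5.46 and 5.11 at 0 months and 6.11, 6.67 and 6.43 at 3 months. Fcna, a ficolin that starts the lectin pathway of complement, read -0.17, -0.23 and -0.74 and then 2.00, 0.67 and 1.38. The 0-month libraries were all under the later ones for each of these genes.

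BC051142 was unlike vehicle in its levels at the start. It read -0.46, -0.96 and -0.26 log2 CPM at 0 months and 1.39, 1.63 and 1.44 at 3 months after DEHP 20, and 1.09, 1.05 and 1.19 and then 1.09, 0.92 and 1.21 after vehicle. The 0-month DEHP 20 libraries stood apart from the other 9 of these 12 libraries. Cxcr6, a chemokine receptor of lymphocytes, and Pla2g2d, a secreted phospholipase, had differences of 1.64 ± 0.35 (SE, adjusted p = 0.143 in limma) and 1.27 ± 0.27, and Dync1i1, a dynein intermediate chain, 0.85 ± 0.18.

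Among genes lower at 3 months, Scml4, a polycomb group protein of the Scm family, had the smallest p. It read 2.52, 2.86 and 2.10 log2 CPM at 0 months and 1.69, 0.60 and 0.84 at 3 months, a difference of -1.45 ± 0.31 (SE, adjusted p = 0.143 in limma). Itga6, a laminin-binding integrin of granulosa cells, read 7.81, 7.78 and 7.36 and then 6.79, 6.84 and 6.96, and Smc1b, a meiotic cohesin subunit, 1.01, 1.88 and 1.31 and then 0.17, -0.16 and 0.13. Myo1e, an unconventional myosin, and the RNA-binding protein Hnrnpd had differences of -0.53 ± 0.12 and -0.63 ± 0.15. C530008M17Rik, Plppr5, Gm16677, Snord47 and Dpf3 were the other genes named in this direction, at -1.30, -1.11, -1.71, -0.89 and -0.82.

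None of the tested genes of hormone receptors, fatty acid oxidation, the dioxin receptor response or DNA methylation was called. Thrb, a thyroid hormone receptor, read 4.01, 3.99 and 4.65 log2 CPM at 0 months and 5.0, 5.35 and 5.69 at 3 months, a difference of 1.13 ± 0.33 (SE, adjusted p = 0.278 in limma) against 0.31 after vehicle. Vdr, the vitamin D receptor, read 0.96, 1.52 and 1.84 and then 1.94, 2.60 and 3.15. Of the 25 genes of PPAR receptors, nuclear receptors that phthalate metabolites can bind, and fatty acid oxidation, 20 were above 0 with a median of 0.17, and the groups did not overlap upward for 5 (10.4% of all genes). After vehicle 19 were above 0 with a median of 0.08, and 3 had such a gap (7.61% of all genes). Plin2, the coat protein of lipid droplets and a PPAR target, read 5.77, 5.65 and 5.70 and then 6.41, 6.49 and 6.43, a difference of 0.74 ± 0.17 (adjusted p = 0.165) against 0.22 after vehicle. Por, the electron donor of cytochrome P450 enzymes, had a difference of 0.62 ± 0.17, and Ahrr, the repressor of the dioxin receptor, -0.95 ± 0.34. For genes of DNA methylation 12 of 16 were lower after DEHP 20 and 11 after vehicle, with medians of -0.13 and -0.18. The groups did not overlap for 6 lower and 2 higher genes after DEHP 20, beside 11.3% and 10.4% of all genes, and for 5 lower genes after vehicle, beside 7.11%. Without replicate 2 at 3 months the DEHP 20 median was -0.03 with 9 genes lower, and it was -0.28 and -0.23 without replicate 1 at 3 months and replicate 3 at 0 months. The list held Uhrf1, which guides Dnmt1 to replicated DNA, at -0.81 ± 0.24, and Dnmt1 at -0.46 ± 0.16.

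Whether the interval itself differed between treatments was tested by the difference of 3-month and 0-month differences. No gene was called for DEHP 20 against vehicle, the mean of the other 4 treatments, DEHP 200 or DiNP 20, at a lowest adjusted p of 1, 1, 0.977 and 1 in limma. Unadjusted p-values under 0.05 numbered 289, 300, 446 and 285, where 737 would be found with no difference. All 4 counts lay under that number, so these p-values lacked the even spread that it assumes. The lack of calls therefore does not show that the intervals were the same. Across the 14740 genes the DEHP 20 and vehicle differences had the same sign in 71.8% of genes and correlated at r = 0.51 (a description across genes, which are not independent). The smallest p above 0 was that of Serpina1d, a serine protease inhibitor, against vehicle, with 2.79 ± 0.62 (SE), and the smallest below 0 that of Mzf1, a zinc finger factor, at -1.49 ± 0.36. Against the mean of the other 4 treatments they were Zfp120 at 0.40 ± 0.11 and Armc8 at -0.56 ± 0.14. Against DEHP 200 they were Pgf, placental growth factor, at 1.28 ± 0.29 and Armc8 at -0.65 ± 0.17, and against DiNP 20 Cyp4f16, a cytochrome P450, at 1.14 ± 0.32 and H2-T-ps at -3.02 ± 0.63.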

How the data were processed

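Per the labels' protocols, total RNA from whole frozen ovaries was made into stranded mRNA libraries and sequenced from 1 end on 1 HiSeq lane. Per the submitters' processing notes FastQC 0.11.8, Salmon 0.11.3, edgeR and R 3.5.2 were used with GRCm38.p6, and log2 CPM is the unit of the single table the authors deposited (18022 genes, 30 columns). Prior count and scaling are not given in the sources used here. Whole reads were not recovered (at most 14.1% of low values whole at a tolerance of 0.02), so no count test was used.

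A model with 10 group means and a prior variance that follows the mean was fitted to all 30 libraries with limma 3.58.1 under R 4.3.3 (array weights used statmod 1.5.0). It covered genes averaging above 0 log2 CPM. This gave 20 residual degrees of freedom, 2.85 prior degrees and a median residual SD of 0.246, and a call needed an adjusted p under 0.05. The fit was tested on simulated data. Members and the 39 lists were chosen with earlier results of these data known, so lists have counts and medians only (34 with at least 5 genes tested). Named genes are the 10 smallest p in each direction, the smallest p of each difference of intervals, 16 reproductive genes, and called genes and up to 4 smallest p of a described list; other named members are stated as chosen after their values were seen, or belong to a stated count. A few genes that the rule would name are left out of the text, and the next by p takes their place. Identifiers matched RefSeq for 17770 genes (98.6%). Alternatives covered scaling, filter, pseudocount of 1 CPM, prior, weights, libraries fitted, replicate block and threshold.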

Additional observations from a re-analysis of the deposited data

Results flagged for a closer look

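Among the 159 genes picked by the naming rule, 3 had opposite gaps after DEHP 20 and after vehicle. In these 3 all DEHP 20 libraries at 3 months lay above those at 0 months, while all vehicle libraries at 3 months lay below. Many other named genes had the upward gap after DEHP 20 without the downward gap after vehicle. Over all 14740 genes tested 20 (0.136%) had this pattern and 13 (0.0882%) its opposite. Serpina1d was named for the smallest p of the interval difference from vehicle, and Pgf for that from DEHP 200. The pattern was thus partly built into their choice, so the count of 3 cannot be compared with the share over all genes. The differences between the intervals had an adjusted p of 1 in limma. Serpina1d read -0.62, 0.54 and 0.49 log2 CPM at 0 months and 1.29, 1.61 and 2.77 at 3 months after DEHP 20, and 0.88, 1.04 and 0.54 and then 0.48, -0.12 and -1.01 after vehicle, a difference between intervals of 2.79 (log2). Pgf read 0.42, 0.33 and 0.22 and then 0.75, 0.83 and 1.23 after DEHP 20, and 0.94, 1.05 and 0.79 and then 0.54, 0.55 and 0.04 after vehicle, a difference of 1.16. Krt18, a keratin of simple epithelia, read 3.13, 3.43 and 3.22 and then 3.74, 4.42 and 3.48 after DEHP 20, and 3.82, 3.64 and 3.56 and then 3.29, 3.37 and 2.49 after vehicle, a difference of 1.25. Serpina1d and Pgf reached at most 2.77 and 1.23 log2 CPM in these libraries, and Krt18 was highest in the library with the highest oviduct markers.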

How the results depend on the processing

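The count of 3 calls for DEHP 20 was 1366 with array weights, which were estimated gene by gene because the first method did not converge, a choice made after seeing the data. It was 0 on the 6 libraries alone, also with a replicate block there, 2 with a replicate block over all 30 libraries, and 0 to 3 leaving out 1 library: 0 without replicate 2 at 0 months or replicates 2 or 3 at 3 months, 1 without replicates 1 or 3 at 0 months. For vehicle the count of 1 was 4 at adjusted p under 0.10, 0 with the stricter filter (mean above 2), 531 with array weights, 0 on its own libraries, with and without the replicate block, and 1 to 3 leaving out 1 library. For DEHP 20 minus vehicle it was 0 to 1 leaving out 1 library, 1 without vehicle replicate 3 at 0 months; the other differences of intervals had no call in any fit run. C1ra, C1s1 and Ltbp2 kept their direction in every fit run. Of single genes not called, Cyp17a1 ran from -1.08 to 0.19, Kitl from -0.77 to 0.35 and Plin1 from -0.61 to 0.13 (log2) leaving out 1 library, so their sign reversed, and the medians of interferon and adipocyte genes ran from -0.30 to 0.32 and from -0.17 to 1.23. Medians within 0.13 of 0 also changed sign for hormone receptors, immediate early, ovulation, PI3K and ribosomal protein genes leaving out 1 library, and the theca median of 0.11 was -0.07 with quantile normalization. The cause of these changes was not tested. Deviations of same-numbered libraries from their group means correlated at r = -0.35, -0.12 and -0.17 across genes. Over all pairings of replicates the range was -0.35 to 0.27. The labels do not say whether the numbers pair samples, and with 3 libraries a group these values cannot settle it. Ltbp2 had an adjusted p of 0.0645 in limma with the replicate block over all libraries and 0.0584 without the trend. With 3 libraries a group, depth is not given exactly, and low genes near the floor of -3.34 are compressed.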

Other observations

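Some hemoglobin and MHC genes differed widely between libraries. Hbb-bs, an adult beta-globin, read 6.52, -0.83 and 4.08 log2 CPM at 0 months after DEHP 20 and -3.34, -2.84 and -3.34 at 3 months, where 2 libraries sit at the floor, while Hba-a1, an alpha-globin, read 6.90, 6.01 and 5.26 and then 5.54, 6.56 and 7.20. H2-Eb1, a beta chain of MHC class II, read 5.95, 4.91 and 4.10 and then 1.11, 2.08 and 0.32. The other 7 tested MHC class II genes had differences above 0, among them H2-Aa at 1.35 ± 0.55 (SE) and Cd74, the invariant chain, at 0.99 ± 0.52. None was called in limma, and these genes were chosen after their values were seen.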
